A study of Homo sapiens with 24 samples.

Results

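The 9 genes described here encode proteins that shorten the life of mRNAs: ZFP36, ZFP36L1 and ZFP36L2, the endoribonuclease ZC3H12A (Regnase-1), and the BTG/TOB proteins BTG1, BTG2, BTG3, TOB1 and TOB2. They were found by gene name among 60660 features measured in 24 RNA-seq libraries, and each name matched 1 feature. They were put together because ZFP36 and BTG1 are higher after Acetalax in these same libraries, so every Acetalax value of a member is given as a description, with no test. Levels without drug were not used in the choice and were tested. The libraries come from LNCaP, an androgen-sensitive prostate cancer line from a lymph node metastasis, and PC3, a line from a metastasis to bone that grows without androgen. Acetalax, known chemically as oxyphenisatin acetate, was once used as a laxative, and the study ties its activity to the cation channel TRPM4.

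Each line was present as a chronic-exposure derivative (CE), passaged in stepwise higher Acetalax until resistant and then kept for 2 weeks free of drug, and as parental cells. LNCaP CE, PC3 CE, LNCaP parental and PC3 parental cells were each sampled after 10 µM Acetalax for 4 h and as controls with no treatment, for which no vehicle is named, with 3 libraries in each of the 8 groups. LNCaP was grown in RPMI-1640 and PC3 in F-12, with 10% serum in each medium, and the effects of medium and line cannot be told apart. The labels call the libraries biological triplicates without naming separate cultures, and they name no clones. LNCaP CE and PC3 CE mean the libraries that carry those labels.

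The ZFP36 family proteins bind AU-rich elements in the 3' untranslated regions (UTRs) of mRNAs through paired zinc fingers and bring the CCR4-NOT complex, which removes the poly(A) tail and opens the mRNA to decay. Kinases of the p38 and MK2 pathway phosphorylate ZFP36 and hold it inactive, and the ZFP36 gene itself is an immediate early gene whose mRNA carries AU-rich elements. ZC3H12A cuts mRNAs at stem-loops in their UTRs. BTG and TOB proteins bind the deadenylase subunits CNOT7 and CNOT8 and slow proliferation, and TOB proteins also bind the poly(A)-binding protein PABPC1. Much of what is known of these factors comes from immune cells, where they limit cytokine mRNAs.

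Totals of RSEM expected counts (estimated reads per gene) ran from 40160832 to 57728014 per library. Levels are given in TPM, a length-scaled abundance that sums to the same total in every library, so genes can be compared with each other. Across 14219 genes the CE controls of the lines correlated at 0.943 with each other (Pearson's r of log levels), against 0.760 for LNCaP CE with LNCaP parental controls and 0.714 for PC3 CE with PC3 parental controls. Of 8 epithelial markers, 2 reached 1 TPM in LNCaP CE controls and 5 in PC3 CE controls, against all 8 in both kinds of parental controls. Their summed TPM ran from 8.79 to 11.1 in LNCaP CE controls, against 1623 to 2066 in LNCaP parental controls. In PC3 CE controls it ran from 25.3 to 28.3, against 3159 to 3627 in PC3 parental controls. Of 8 prostate luminal markers, 2 reached 1 TPM in LNCaP CE controls (summed TPM 10.4 to 13.0), against 8 in LNCaP parental controls (5122 to 8076). Of 6 fibroblast markers, 6 reached 1 TPM in LNCaP CE controls (summed TPM 984 to 1045), against 1 in LNCaP parental controls (9.24 to 23.4). In PC3 CE controls 5 did (2996 to 3003), against 1 in PC3 parental controls (31.0 to 39.1). Of 8 melanocyte markers, 2 reached 1 TPM in LNCaP CE controls (summed TPM 27.2 to 31.8), against 3 in LNCaP parental controls (11.7 to 25.8), and 2 did in PC3 CE controls (386 to 404), against 3 in PC3 parental controls (13.5 to 17.5). Most of the CE sum was TYRP1, an enzyme of pigment synthesis, with 20.9 ± 1.85 TPM in LNCaP CE and 0.487 ± 0.127 TPM in LNCaP parental controls, and 380 ± 9.82 TPM in PC3 CE and 0.0200 ± 0.0346 TPM in PC3 parental controls (SD, n = 3 each). The melanocyte genes MLANA and SOX10 were at 0 in every library. The label of an epithelial line therefore goes with the markers of the parental libraries and not with those of the CE libraries. The part of these marker differences in the CE comparisons below was not tested. Endothelial and immune markers summed to at most 6.97 TPM in every library. In bulk RNA, fewer cells of a type and less RNA per cell cannot be told apart.

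Some libraries stood apart from the others of their group. LNCaP parental control 2 and LNCaP parental Acetalax 3 held 52.4 and 42.4 TPM of the stress and hypoxia gene NDRG1, against 443 to 681 TPM in the other 4 LNCaP parental libraries. PC3 CE Acetalax 1 held 936 TPM of the stress gene DDIT3, against 22.7 and 43.0 TPM in its replicates, and correlated least with them (r at most 0.980). Member values that rest on these 3 libraries are given with and without them.

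Without drug, the members were arranged differently in CE and parental cells. BTG1 was the most abundant member in LNCaP parental controls (168 ± 13.8 TPM, SD, n = 3) and came after ZFP36L1 in PC3 parental controls (69.1 ± 7.01 TPM against 86.4 ± 6.41 TPM). In CE controls BTG1 was the last but one of the 9, at 9.97 ± 0.989 TPM in LNCaP CE and 11.3 ± 1.29 TPM in PC3 CE, and ZC3H12A was the lowest. The order in LNCaP CE controls was TOB2, ZFP36L1, BTG3, ZFP36L2, TOB1, BTG2, ZFP36, BTG1 and ZC3H12A. Within it ZFP36L1 and BTG3, and BTG3 and ZFP36L2, overlapped between libraries. In PC3 CE controls TOB1 came first, followed by TOB2, ZFP36L1, BTG3, ZFP36L2, BTG2, ZFP36, BTG1 and ZC3H12A, with no overlap between neighbours. In LNCaP parental controls, BTG1 and TOB1 led without overlap, and BTG3, ZFP36L1, BTG2, TOB2 and ZC3H12A followed with each neighbour overlapping the next. ZFP36L2 and ZFP36 closed that order, overlapping each other. In PC3 parental controls the order was ZFP36L1, BTG1, TOB1, ZFP36L2, ZC3H12A, BTG3, ZFP36, TOB2 and BTG2, and TOB1 with ZFP36L2, ZC3H12A with BTG3, and ZFP36 with TOB2 overlapped.

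**Figure D1:**
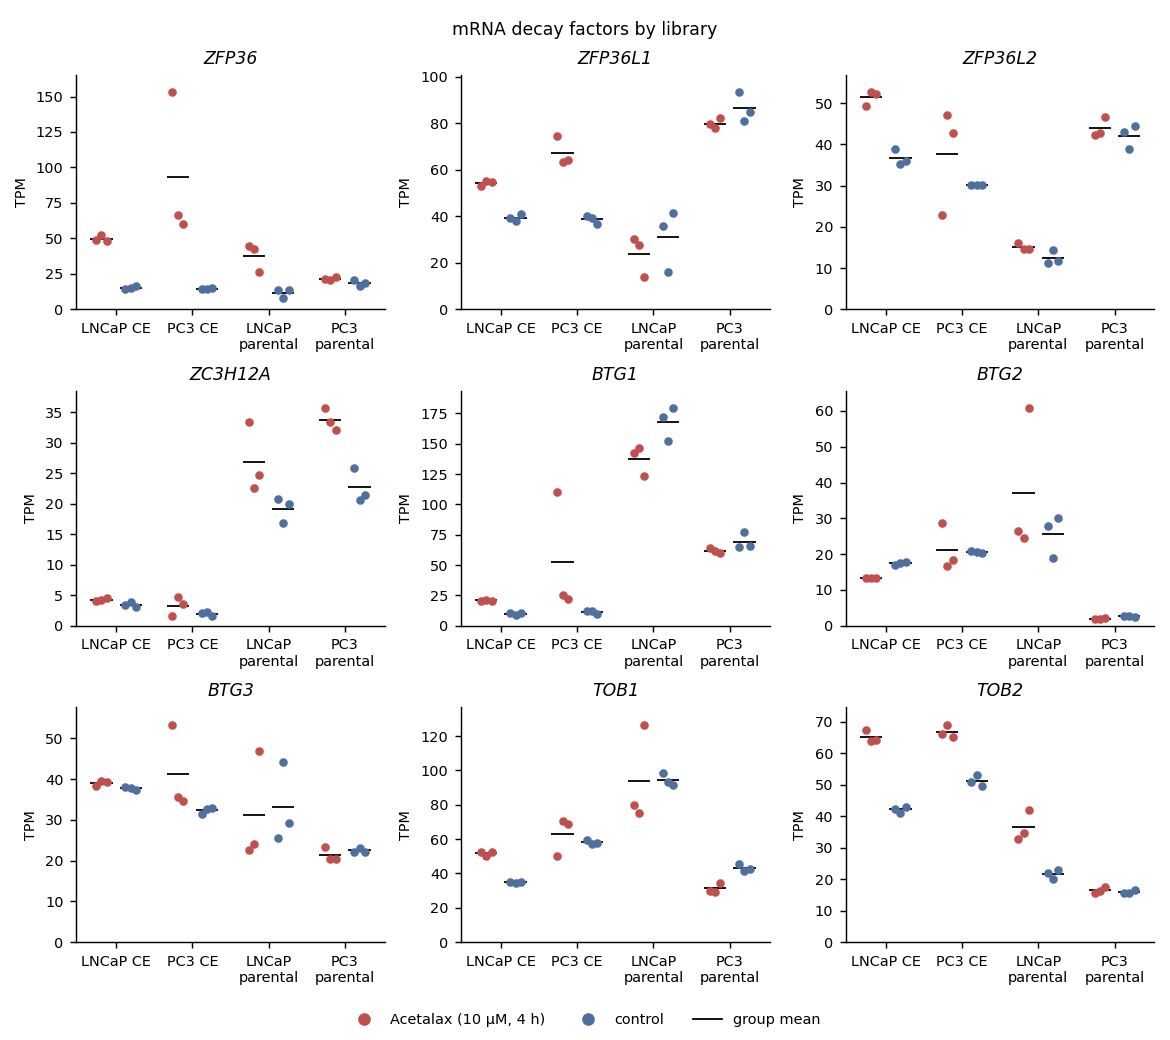
TPM of each of the 9 members in all 24 libraries, with LNCaP CE, PC3 CE, LNCaP parental and PC3 parental cells from left to right and Acetalax (red) left of control (blue); every axis starts at 0 and black lines are group means. ZFP36 reaches 153 TPM in PC3 CE Acetalax 1 and 48.1 to 66.7 TPM in the other CE Acetalax libraries, above all CE controls.

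ZFP36 (tristetraprolin; ENSG00000128016.7, chr19:39406813-39409412, plus strand, GRCh38) is the founding member of its family. It had 49.1, 52.1 and 48.1 TPM in LNCaP CE Acetalax libraries, against 14.3, 14.8 and 16.6 TPM in LNCaP CE controls. In PC3 CE it had 153, 66.7 and 60.4 TPM with Acetalax, against 14.4, 14.3 and 14.7 TPM without. Every CE library with Acetalax lay above every CE control. LNCaP parental cells had 44.5, 42.3 and 26.7 TPM with Acetalax, against 13.5, 8.30 and 13.5 TPM in controls. The lowest value on each side belongs to the library that stood apart, and the groups still did not overlap. PC3 parental cells had 21.1, 20.4 and 23.0 TPM with Acetalax, against 20.6, 16.6 and 18.6 TPM in controls, and here the groups overlapped.

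On the log2 scale of the edgeR model, the Acetalax change of ZFP36 was 1.84 ± 0.17 (SE) in LNCaP CE, 2.77 ± 0.30 in PC3 CE, 1.75 ± 0.17 in LNCaP parental and 0.18 ± 0.29 in PC3 parental cells. Without PC3 CE Acetalax 1 the PC3 CE value was 2.20. The SE pools the spread over the 12 libraries of a line, so that in PC3 it also carries the distance of PC3 CE Acetalax 1 from its replicates. Set side by side, the change was larger by 2.59 ± 0.41 in PC3 CE than in PC3 parental cells and by 0.09 ± 0.24 in LNCaP CE than in LNCaP parental cells. Without drug, ZFP36 rose by 0.50 ± 0.17 in LNCaP CE against LNCaP parental controls (edgeR's quasi-likelihood test, adjusted p = 0.0196), with all 3 CE controls above all 3 parental ones, but the call was lost without LNCaP parental control 2 (0.34, adjusted p = 0.0567) or LNCaP CE control 3 (adjusted p = 0.0638), from only the libraries compared (adjusted p = 0.0574) and with limma (0.126 on log2(TPM + 1) and 0.117 on log2(TPM + 0.1)). With all 3 libraries that stood apart left out the change was smaller, 0.30, and past the threshold (adjusted p = 0.00202). In PC3 it was -0.41 ± 0.29 (adjusted p = 0.207), with all PC3 CE controls below the parental ones, and without PC3 CE Acetalax 1 the same difference of -0.41 was past the threshold (adjusted p = 0.000229).

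**Figure D2:**
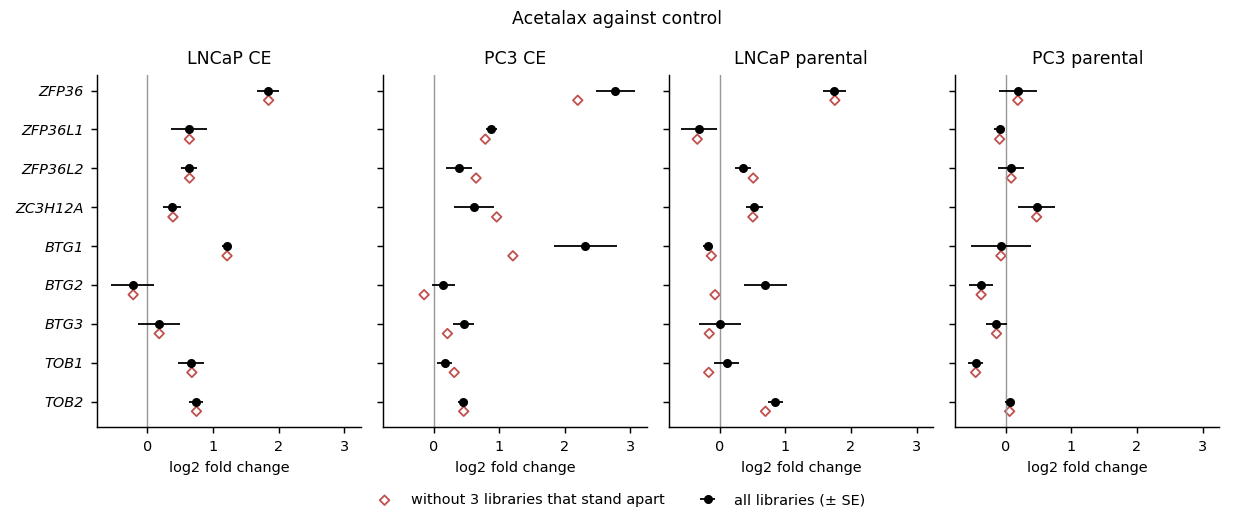
Acetalax against control as log2 fold change of the 9 members (rows) in LNCaP CE, PC3 CE, LNCaP parental and PC3 parental cells; black points are fits on all libraries with SE bars, and red diamonds are the same fit without the 3 libraries that stood apart. ZFP36 lies between 1.75 and 2.77 in 3 kinds of cells and at 0.18 in PC3 parental cells; BTG1 in PC3 CE moves between 2.31 and 1.21.

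The UAUUUAU heptamer is the core of the AU-rich element that ZFP36 proteins bind, and it bears on the ZFP36 family in 2 ways, as the sequence they read and as one that their own mRNAs carry. In the longest annotated 3' UTR of each gene (GENCODE 29, DNA letters, transcribed strand only), TATTTAT was present in 7 of the 9 members, against 34.0% of the 15526 tested genes that have such a UTR. The longer form TTATTTATT was in 3 members, ZFP36, ZFP36L1 and ZFP36L2, against 8.99% of those genes. ZC3H12A and TOB1 held neither form. The median UTR was 1917 bases in the members and 1270 bases in all genes, and a longer UTR has more room for any heptamer, so the number per kilobase is given too, 0.864 in the members and 0.321 in all genes. The sites of the 3 ZFP36 genes, BTG1, BTG3 and TOB2 are shown because the family reads this element and BTG1, BTG3 and TOB2 separated upward in both CE lines, and those of the known targets TNF and FOS stand beside them; capitals mark each heptamer.
ZFP36, chr19:39409181-39409210, plus strand: aatgggcccttTATTTATgacgactttatt
ZFP36L1, chr14:68788335-68788364, minus strand: ttatcaaaacgTATTTATtgccaaactatg
ZFP36L2, chr2:43223447-43223476, minus strand: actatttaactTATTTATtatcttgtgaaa
BTG1, chr12:92140769-92140798, minus strand: aatagatttctTATTTATctgaaggtatac
BTG3, chr21:17593830-17593859, minus strand: ttggacttgagTATTTATatattgtgcatc
TOB2, chr22:41435379-41435408, minus strand: tcgcaagtcctTATTTATatgtgaggctgg
TNF, chr6:31578001-31578030, plus strand: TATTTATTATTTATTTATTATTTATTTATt
FOS, chr14:75282060-75282089, plus strand: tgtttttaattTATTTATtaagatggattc
Each ZFP36 family mRNA held 3 heptamers, BTG1, BTG2 and TOB2 held 1 each, BTG3 and FOS held 2 each and TNF held 8. BTG2 is the member with a heptamer whose site is not shown, and it was lower in every LNCaP CE Acetalax library. The sites were picked partly by Acetalax direction, so nothing about that direction is read from them. A match describes the letters of the annotated UTR and says nothing of binding in these cells.

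ZFP36L1 (ENSG00000185650.10, chr14:68787660-68796253, minus strand) is the paralog best known for roles in development and in cell quiescence. It had 52.9, 55.1 and 54.9 TPM in LNCaP CE Acetalax libraries, against 39.4, 37.9 and 40.8 TPM in LNCaP CE controls. In PC3 CE it had 74.3, 63.2 and 64.3 TPM with Acetalax, against 40.3, 39.3 and 36.6 TPM in controls. In both CE lines the Acetalax libraries lay above the controls. In LNCaP parental cells (30.2, 27.9 and 13.8 TPM with Acetalax, against 35.6, 16.2 and 41.4 TPM in controls) and in PC3 parental cells (79.5, 77.8 and 82.3 TPM, against 93.4, 81.0 and 84.7 TPM) the groups overlapped. The log2 changes were 0.63 ± 0.27 in LNCaP CE, 0.88 ± 0.08 in PC3 CE, -0.32 ± 0.27 in LNCaP parental and -0.10 ± 0.08 in PC3 parental cells. Without drug ZFP36L1 fell by 1.25 ± 0.08 in PC3 CE against PC3 parental controls (adjusted p = 6.45e-08), and in LNCaP CE the difference of 0.46 ± 0.27 missed the threshold (adjusted p = 0.143). Without the libraries that stood apart it was 0.15 and past the threshold (adjusted p = 0.0139).

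ZFP36L2 (ENSG00000152518.8, chr2:43222402-43226609, minus strand) is the paralog with known roles in blood stem cells and early embryos. It had 49.4, 52.7 and 52.3 TPM in LNCaP CE Acetalax libraries, against 38.8, 35.3 and 36.0 TPM in controls. In PC3 CE it had 22.8, 47.0 and 42.9 TPM with Acetalax, against 30.2, 30.2 and 30.1 TPM in controls, so the library that stood apart lay below the controls and its replicates above them. LNCaP parental cells had 16.0, 14.6 and 14.6 TPM with Acetalax, against 11.3, 14.5 and 11.7 TPM in controls, and PC3 parental cells had 42.2, 42.7 and 46.8 TPM, against 43.0, 38.9 and 44.6 TPM. The LNCaP parental groups were just separate and the PC3 parental groups overlapped. The log2 changes were 0.63 ± 0.12 in LNCaP CE, 0.39 ± 0.20 in PC3 CE (0.65 without PC3 CE Acetalax 1), 0.35 ± 0.12 in LNCaP parental (0.51 without the libraries that stood apart) and 0.08 ± 0.20 in PC3 parental cells. Without drug, ZFP36L2 rose by 1.65 ± 0.12 in LNCaP CE against LNCaP parental controls (adjusted p = 3.62e-07) and fell by 0.55 ± 0.20 in PC3 CE against PC3 parental controls (adjusted p = 0.0248). The PC3 call was lost without PC3 parental control 3 (adjusted p = 0.0810) and without any of the 3 PC3 CE controls (0.0592 to 0.0612), and with limma (0.0583 on log2(TPM + 1) and 0.0569 on log2(TPM + 0.1)).

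Because the 3 ZFP36 paralogs read the same element, their sum and the share of ZFP36 were also set out. ZFP36, ZFP36L1 and ZFP36L2 together came to 156 ± 4.25 TPM with Acetalax and 91.3 ± 2.90 TPM in controls of LNCaP CE (SD, n = 3 each), and to 198 ± 45.3 TPM with Acetalax and 83.4 ± 1.82 TPM in controls of PC3 CE. In LNCaP parental cells the sum was 76.8 ± 19.1 TPM with Acetalax and 55.4 ± 14.5 TPM in controls, and in PC3 parental cells 145 ± 5.91 TPM and 147 ± 10.3 TPM. ZFP36 made up 31.0 to 32.6% of the sum with Acetalax and 15.4 to 17.7% in controls of LNCaP CE, and 36.1 to 61.2% and 17.0 to 18.1% in PC3 CE. In LNCaP parental cells its share was 48.5 to 49.9% with Acetalax and 20.3 to 22.3% in controls. The LNCaP parental libraries that stood apart had the lowest sum of their groups, with ZFP36 shares of 48.5% in Acetalax 3, against 49.0 and 49.9% in its replicates, and of 21.3% in control 2, against 22.3 and 20.3%. In PC3 parental cells the share was 14.5 to 15.1% with Acetalax and 12.2 to 13.1% in controls.

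**Figure D3:**
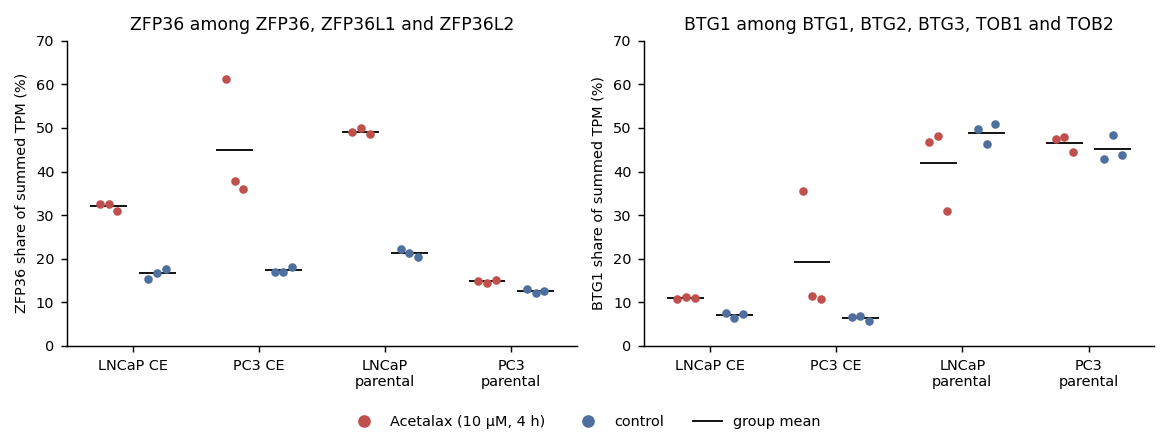
Share of summed TPM in percent for ZFP36 within its 3 paralogs (left) and BTG1 within the 5 BTG and TOB genes (right), per library, Acetalax (red) left of control (blue), with black group means. ZFP36 makes up 48.5 to 49.9% in all 3 LNCaP parental Acetalax libraries against 20.3 to 22.3% in controls; BTG1 makes up 6.33 to 7.46% in LNCaP CE controls against 46.4 to 50.8% in LNCaP parental controls.

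ZC3H12A (ENSG00000163874.11, chr1:37474552-37484379, plus strand; the microRNA gene MIR6732 lies inside it) cuts stem-loop mRNAs such as those of inflammatory cytokines. It was low in CE cells, at 4.00, 4.21 and 4.62 TPM in LNCaP CE Acetalax libraries, against 3.38, 3.92 and 3.08 TPM in controls, and at 1.68, 4.64 and 3.61 TPM in PC3 CE Acetalax libraries, against 2.06, 2.28 and 1.65 TPM in controls. In LNCaP parental cells it had 33.5, 22.5 and 24.7 TPM with Acetalax, against 20.8, 16.8 and 20.1 TPM in controls. PC3 parental cells had 35.7, 33.4 and 32.1 TPM with Acetalax, against 25.9, 20.7 and 21.5 TPM in controls. In LNCaP CE and in both parental lines the Acetalax libraries lay above the controls, and in PC3 CE the groups overlapped through PC3 CE Acetalax 1. ZC3H12A was the only member that separated upward in PC3 parental cells. The log2 changes were 0.38 ± 0.13 in LNCaP CE, 0.62 ± 0.30 in PC3 CE (0.96 without PC3 CE Acetalax 1), 0.52 ± 0.13 in LNCaP parental and 0.47 ± 0.28 in PC3 parental cells. Without drug ZC3H12A fell by 2.16 ± 0.14 in LNCaP CE (adjusted p = 7.96e-08) and by 3.30 ± 0.31 in PC3 CE (adjusted p = 1.31e-06) against the parental controls.

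BTG1 (ENSG00000133639.6, chr12:92140278-92145897, minus strand) is an antiproliferative protein that is high in resting lymphocytes. Its locus overlaps the long noncoding genes LINC01619 and AC025164.1, 1 of them on the opposite strand, and the strand setting of the counting is not given in the sources used here. BTG1 had 20.7, 21.2 and 20.8 TPM in LNCaP CE Acetalax libraries, against 10.7, 8.84 and 10.4 TPM in controls. In PC3 CE it had 110, 25.0 and 22.4 TPM with Acetalax, against 11.8, 12.2 and 9.80 TPM in controls. Every CE Acetalax library lay above its controls, and PC3 CE Acetalax 1 lay far above its replicates. In parental cells the order in TPM was the other way round, though the modelled PC3 parental change of -0.08 was smaller than its SE of 0.45. With Acetalax LNCaP parental cells had 143, 147 and 123 TPM, against 172, 153 and 179 TPM in controls, and PC3 parental cells had 64.0, 61.9 and 59.9 TPM, against 64.8, 77.2 and 65.4 TPM, each without overlap.

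The log2 changes of BTG1 with Acetalax were 1.21 ± 0.07 in LNCaP CE, 2.31 ± 0.48 in PC3 CE, -0.18 ± 0.07 in LNCaP parental and -0.08 ± 0.45 in PC3 parental cells. Without PC3 CE Acetalax 1 the PC3 CE value was 1.21, the same to 2 decimals as that of LNCaP CE. Without drug, BTG1 fell by 3.90 ± 0.08 in LNCaP CE against LNCaP parental controls (15.0-fold lower, adjusted p = 1.73e-11) and by 2.60 ± 0.48 in PC3 CE against PC3 parental controls (6.07-fold lower, adjusted p = 0.000384). With Acetalax, BTG1 in CE cells was still below every parental library of the same line, apart from PC3 CE Acetalax 1. BTG1 made up 7.01 ± 0.599% of the summed TPM of the 5 BTG and TOB genes in LNCaP CE controls and 48.9 ± 2.31% in LNCaP parental controls, and 6.49 ± 0.643% in PC3 CE controls and 45.1 ± 2.85% in PC3 parental controls (SD, n = 3 each).

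BTG2 (ENSG00000159388.6, chr1:203305491-203309602, plus strand) is an immediate early gene and a target of p53, a factor that PC3 cells lack. It had 13.2, 13.3 and 13.2 TPM in LNCaP CE Acetalax libraries, against 16.9, 17.4 and 17.9 TPM in controls, and all 3 were lower. PC3 CE had 28.8, 16.6 and 18.3 TPM with Acetalax, against 20.8, 20.6 and 20.3 TPM in controls. In LNCaP parental cells BTG2 had 26.5, 24.4 and 60.8 TPM with Acetalax, against 27.9, 18.8 and 30.1 TPM in controls. In both, the Acetalax library that stood apart was the highest of its group, and the groups overlapped. PC3 parental cells held little BTG2, at 1.91, 1.85 and 2.13 TPM with Acetalax, against 2.85, 2.68 and 2.48 TPM in controls, with all 3 lower. The log2 changes were -0.23 ± 0.32 in LNCaP CE, 0.15 ± 0.17 in PC3 CE, 0.70 ± 0.32 in LNCaP parental and -0.38 ± 0.19 in PC3 parental cells. Without the libraries that stood apart the PC3 CE and LNCaP parental values changed sign, to -0.14 and -0.07. Without drug BTG2 rose by 2.89 ± 0.19 in PC3 CE against PC3 parental controls (adjusted p = 4.64e-08), and in LNCaP CE the difference of -0.45 ± 0.32 missed the threshold (adjusted p = 0.226), with all 3 CE controls lower. Without the libraries that stood apart it was -0.62 and past the threshold (adjusted p = 2.47e-08).

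BTG3 (ENSG00000154640.15, chr21:17593653-17612947, minus strand), another antiproliferative relative, overlaps its antisense gene BTG3-AS1. It had 38.3, 39.6 and 39.3 TPM in LNCaP CE Acetalax libraries, against 38.1, 37.8 and 37.3 TPM in controls, and 53.4, 35.6 and 34.7 TPM in PC3 CE Acetalax libraries, against 31.5, 32.6 and 33.0 TPM. Both sets of Acetalax libraries lay just above their controls. LNCaP parental cells had 22.6, 24.1 and 46.8 TPM with Acetalax, against 25.6, 44.3 and 29.3 TPM in controls, and PC3 parental cells had 23.4, 20.4 and 20.4 TPM, against 22.2, 23.2 and 22.2 TPM. The highest LNCaP parental value on each side belonged to the library that stood apart. The log2 changes were 0.17 ± 0.32, 0.46 ± 0.16, 0.01 ± 0.32 and -0.14 ± 0.16 in LNCaP CE, PC3 CE, LNCaP parental and PC3 parental cells. Leaving out the libraries that stood apart lowered the PC3 CE value to 0.21 and changed the sign of the LNCaP parental value, to -0.16. Without drug BTG3 rose by 0.41 ± 0.16 in PC3 CE (adjusted p = 0.0298) and differed by 0.28 ± 0.32 in LNCaP CE (adjusted p = 0.440). The PC3 call did not hold when PC3 parental control 1 (adjusted p = 0.104) or 3 (0.0550) or PC3 CE control 2 (0.0638) or 3 (0.0731) was left out. Without the libraries that stood apart the LNCaP value was 0.59 (adjusted p = 3.54e-07).

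TOB1 (ENSG00000141232.5, chr17:50862223-50867978, minus strand; TOB1-AS1 overlaps it) and TOB2 (ENSG00000183864.5, chr22:41433492-41447023, minus strand) link the deadenylase to the poly(A)-binding protein. TOB1 had 52.5, 50.3 and 52.4 TPM in LNCaP CE Acetalax libraries, against 34.9, 34.5 and 35.1 TPM in controls. PC3 CE had 50.1, 70.6 and 68.5 TPM with Acetalax, against 59.5, 57.0 and 57.5 TPM in controls, the lowest being the library that stood apart. LNCaP parental cells had 79.8, 75.4 and 127 TPM, against 98.5, 93.3 and 91.5 TPM in controls, the highest being the library that stood apart. PC3 parental cells had 30.0, 29.2 and 34.7 TPM with Acetalax, against 45.3, 41.3 and 42.4 TPM in controls, all lower. The log2 changes were 0.67 ± 0.20 in LNCaP CE, 0.17 ± 0.11 in PC3 CE (0.31 without PC3 CE Acetalax 1), 0.10 ± 0.19 in LNCaP parental (-0.17 without the libraries that stood apart) and -0.46 ± 0.12 in PC3 parental cells. Without drug TOB1 fell by 1.33 ± 0.20 in LNCaP CE (adjusted p = 9.42e-05) and rose by 0.40 ± 0.12 in PC3 CE (adjusted p = 0.00758) against parental controls.

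TOB2 had 67.3, 63.9 and 64.2 TPM in LNCaP CE Acetalax libraries, against 42.4, 41.0 and 43.1 TPM in controls. PC3 CE had 66.2, 69.2 and 65.3 TPM with Acetalax, against 51.0, 53.1 and 49.6 TPM in controls. In LNCaP parental cells TOB2 had 32.9, 34.6 and 42.1 TPM with Acetalax, against 22.1, 20.1 and 22.8 TPM in controls. In these 3 kinds of cells the Acetalax libraries lay above the controls, those that stood apart included, while in PC3 parental cells the groups overlapped (15.6, 16.1 and 17.6 TPM, against 15.6, 15.5 and 16.6 TPM). TOB2 and ZFP36 were the members with this pattern of separation in LNCaP CE, PC3 CE and LNCaP parental cells and overlap in PC3 parental cells. The log2 changes of TOB2 were 0.74 ± 0.11 in LNCaP CE, 0.45 ± 0.08 in PC3 CE, 0.85 ± 0.11 in LNCaP parental and 0.06 ± 0.08 in PC3 parental cells. Without drug TOB2 rose by 1.10 ± 0.11 in LNCaP CE (adjusted p = 4.43e-06) and by 1.57 ± 0.08 in PC3 CE (adjusted p = 3.88e-09), and both calls held in each of 14 alternative analyses.

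Counted together, all 9 members did not overlap between Acetalax and control in LNCaP CE, 8 higher and 1 lower. There 44.7% of all 19393 genes did not overlap in either direction, 2017 higher and 6650 lower. In PC3 CE 5 were higher and 0 lower (31.9% of 20049 genes, 2147 higher and 4258 lower). In LNCaP parental cells 4 were higher and 1 lower (19.5% of 19393 genes, 1123 higher and 2663 lower). In PC3 parental cells 1 was higher and 3 lower (32.9% of 20049 genes, 3192 higher and 3398 lower). The members were chosen on this contrast, so nothing is read from these counts. The median member change was 0.63 in LNCaP CE, 0.46 in PC3 CE, 0.35 in LNCaP parental and -0.08 in PC3 parental cells on the log2 scale, while the median of all genes lay within 0.02 of 0. All 9 members passed the filter on low counts in every fit.

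The comparisons with Acetalax, of CE with parental cells and between lines share the same control libraries. In the CE comparisons, which the choice did not use, 6 of 9 members were called in LNCaP, 3 higher and 3 lower, against a background of 75.3% of all genes. In PC3 8 of 9 were called, 4 higher and 4 lower, against 77.5% of all genes. Both shares are near the background of these comparisons, in which most genes differ. Members called in both lines with the same direction were TOB2, which rose, and BTG1 and ZC3H12A, which fell. BTG3 was higher in both (0.28 in LNCaP and 0.41 in PC3) but was called in PC3 only. The difference of the CE change between the lines was itself past the threshold for 8 of 9 members, against 56.8% of all genes, and for 6 to 8 when 1 library was left out. ZFP36L2 differed by 2.18 ± 0.25 (adjusted p = 2.33e-07), ZFP36L1 by 1.68 ± 0.30 (adjusted p = 7.17e-05), BTG2 by -3.37 ± 0.39 (adjusted p = 2.87e-07) and TOB1 by -1.76 ± 0.23 (adjusted p = 1.67e-06), LNCaP minus PC3. The ZFP36 call (0.88, adjusted p = 0.0382) was lost without LNCaP CE control 2 or 3, any PC3 CE control, LNCaP parental control 2 or PC3 parental control 1 or 3 (adjusted p = 0.0559 to 0.103), and with limma (0.0895 on log2(TPM + 1) and 0.0776 on log2(TPM + 0.1)). It was kept with all 3 libraries that stood apart left out (0.71, adjusted p = 1.13e-05). The BTG1 call (-1.33, adjusted p = 0.0266) was lost without LNCaP CE control 2 (0.0556) or PC3 parental control 1 (0.0508). BTG3 was the member not called (-0.16 ± 0.36, adjusted p = 0.772), and its value was 0.18 without the libraries that stood apart (adjusted p = 0.115).

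**Figure D4:**
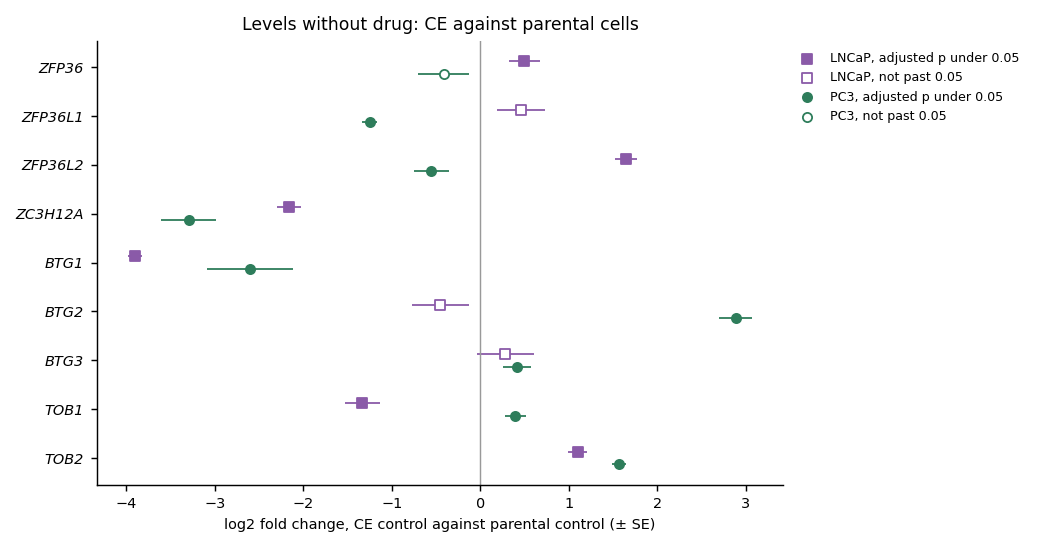
Log2 fold change ± SE of the 9 members in CE controls against parental controls, for LNCaP (purple squares, upper) and PC3 (green circles, lower); filled symbols passed an adjusted p of 0.05. BTG1 and ZC3H12A lie left of 0 and TOB2 right of 0 in both lines, and BTG2, ZFP36L1, ZFP36L2 and TOB1 lie far apart between lines.

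Between the lines, 7 of 9 members were called in LNCaP parental against PC3 parental controls, against 70.3% of all genes, and 2 of 9 in LNCaP CE against PC3 CE controls, against 41% of all genes. In parental cells BTG2 was higher in LNCaP by 3.25 ± 0.30 (adjusted p = 4.75e-09), BTG1 by 1.37 ± 0.35 (adjusted p = 0.00160), TOB1 by 1.16 ± 0.17 (adjusted p = 2.84e-06) and TOB2 by 0.38 ± 0.09 (adjusted p = 0.00113). The ZFP36 family was lower in LNCaP, with log2 differences of -1.76 ± 0.18 for ZFP36L2 (adjusted p = 2.73e-08), -1.54 ± 0.22 for ZFP36L1 (adjusted p = 2.51e-06) and -0.66 ± 0.25 for ZFP36 (adjusted p = 0.0244). The ZFP36 call was lost without LNCaP parental control 2 (adjusted p = 0.119), without PC3 parental control 1 (0.0609) and without PC3 parental control 3 (0.0550), and kept with all 3 libraries that stood apart left out (-0.49, adjusted p = 2.84e-05). BTG3 (0.55 ± 0.26, adjusted p = 0.0629; 0.22 and past the threshold at 0.00961 without the libraries that stood apart) and ZC3H12A (-0.20 ± 0.23, adjusted p = 0.447) were not called. In CE controls ZC3H12A was higher in LNCaP CE by 0.90 ± 0.25 (adjusted p = 0.00593) and TOB1 was lower (-0.59 ± 0.16, adjusted p = 0.00610). The spread of these fits comes from all 24 libraries, and in a fit of the 6 CE controls alone 8 of 9 members were called, all but BTG1. Without the libraries that stood apart 7 were called. The 41% of all genes comes from the fit of all 24 libraries. Shares of all genes in the alternative fits are not given here, so nothing about the members is read from those counts.

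The decay machinery that these factors recruit was followed in lists that hold no member. With Acetalax, 7.4% of all genes were called in LNCaP CE, 8.15% in PC3 CE, 8.45% in LNCaP parental and 7.8% in PC3 parental cells. Of 16 deadenylation genes, 4 rose and 1 fell in LNCaP CE, 3 rose in PC3 CE, 2 rose and 1 fell in LNCaP parental cells, and 5 fell in PC3 parental cells. CNOT8, a deadenylase that BTG and TOB proteins bind, rose by 0.74 ± 0.10 in LNCaP CE (92.5 ± 3.74 TPM with Acetalax and 62.0 ± 1.77 TPM in controls, adjusted p = 0.00167) and by 0.55 ± 0.07 in PC3 CE (adjusted p = 0.00198). Its paralog CNOT7 lay between -0.10 and 0.15 on the log2 scale in all 4, with no call. In PC3 parental cells the scaffold CNOT1 fell by 0.51 ± 0.08 (adjusted p = 0.00273) and CNOT4, a ubiquitin ligase of the complex, by 0.74 ± 0.12 (adjusted p = 0.00428). CNOT4 rose in LNCaP CE by 0.49 ± 0.11 (adjusted p = 0.0246) and in PC3 CE by 0.51 ± 0.12 (adjusted p = 0.0262). Without the 3 libraries that stood apart, 9 rose and 2 fell in LNCaP CE, 5 rose and 1 fell in PC3 CE, 8 rose and 2 fell in LNCaP parental, and 2 rose and 11 fell in PC3 parental cells. In that fit 3517 of 19832 genes rose and 3246 fell in LNCaP CE, and 1590 of 20459 rose and 1768 fell in PC3 CE. In LNCaP parental cells 2840 of 19832 rose and 2440 fell, and in PC3 parental cells 2650 of 20459 rose and 2940 fell. Later list counts from that fit are to be set against these larger backgrounds. With all libraries, the median of the deadenylation list was -0.23 in PC3 parental cells, against 0.00 over all genes, and 0.14 in LNCaP CE.

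Of 15 decapping and exonuclease genes, 6 fell in PC3 parental cells, among them GIGYF2 (-0.71 ± 0.08, adjusted p = 0.000949), a partner through which ZFP36 represses translation, and EIF4E2 (-0.62 ± 0.10, adjusted p = 0.00483), the cap-binding protein joined to it. In the other cells 1 rose in LNCaP CE, 1 rose in PC3 CE, and 3 rose and 1 fell in LNCaP parental cells. In the fit that left out the libraries standing apart, 7 rose and 3 fell in LNCaP CE, 6 rose and 2 fell in LNCaP parental, and 9 fell in PC3 parental cells. The decapping cofactor DCP1A rose in the other 3 kinds of cells, by 0.75 ± 0.07 in LNCaP CE (adjusted p = 0.000411), 1.15 ± 0.19 in PC3 CE (adjusted p = 0.00543; 0.80 without PC3 CE Acetalax 1) and 0.44 ± 0.07 in LNCaP parental cells (adjusted p = 0.00338). Of 14 other RNA-binding regulators that could be tested, 3 rose and 1 fell in LNCaP CE, 3 rose in PC3 CE, 3 rose in LNCaP parental and 2 fell in PC3 parental cells. With the libraries that stood apart left out, 4 rose and 2 fell in LNCaP CE, 5 rose and 1 fell in PC3 CE, 7 rose and 2 fell in LNCaP parental, and 4 fell in PC3 parental cells. PUM2, a Pumilio protein that also recruits CCR4-NOT, rose by 0.45 ± 0.08 in LNCaP CE (adjusted p = 0.00873), 0.32 ± 0.07 in PC3 CE (adjusted p = 0.0194) and 0.42 ± 0.08 in LNCaP parental cells (adjusted p = 0.00936), and fell by 0.34 ± 0.07 in PC3 parental cells (adjusted p = 0.0135).

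Genes induced together with ZFP36 in many cells, the immediate early genes, rose in 4 of 18 cases in LNCaP CE, 15 in PC3 CE, 10 in LNCaP parental and 2 in PC3 parental cells, and 0 fell in any of them. Their median change was 0.46, 2.26, 0.83 and 0.35 on the log2 scale in LNCaP CE, PC3 CE, LNCaP parental and PC3 parental cells. FOS, a subunit of AP-1, had 51.2 ± 1.53 TPM with Acetalax and 8.96 ± 0.771 TPM in controls of LNCaP CE (2.73 ± 0.66, adjusted p = 0.031). In PC3 CE it had 693, 133 and 111 TPM with Acetalax, against 7.02, 7.03 and 7.26 TPM in controls (5.69 ± 0.66, adjusted p = 0.000853), and without PC3 CE Acetalax 1 the change was 4.32. JUN, its partner, had 166 ± 3.84 TPM with Acetalax and 39.9 ± 18.6 TPM in controls of LNCaP parental cells (2.17 ± 0.27, adjusted p = 0.00077). IER5, a stress-responsive immediate early gene, rose in all 4 kinds of cells, by log2 changes of 0.80 to 1.40, and in PC3 parental cells it had 42.0 ± 0.329 TPM with Acetalax and 16.2 ± 1.29 TPM in controls (1.40 ± 0.11, adjusted p = 9.51e-05). Without the 3 libraries that stood apart, 12 rose in LNCaP CE, 17 in PC3 CE, 14 in LNCaP parental and 8 in PC3 parental cells, and 1 fell in each kind of parental cells; the PC3 CE median was then 1.27.

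**Figure D5:**
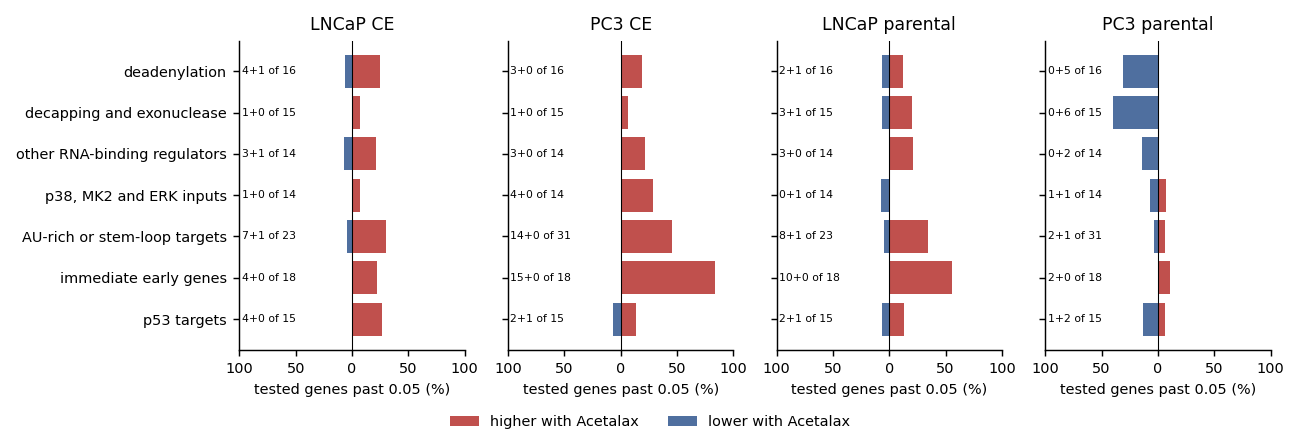
Share of tested genes of each pathway list that were higher (red, right) or lower (blue, left) with Acetalax at an adjusted p of 0.05, in percent, for 4 kinds of cells; the printed counts are higher + lower of tested. Immediate early genes reach 15 of 18 in PC3 CE, and in PC3 parental cells 5 of 16 deadenylation and 6 of 15 decapping genes are lower.

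Of known mRNA targets of ZFP36 or ZC3H12A, 7 of 23 tested rose and 1 fell in LNCaP CE, 14 of 31 rose in PC3 CE, 8 of 23 rose and 1 fell in LNCaP parental, and 2 of 31 rose and 1 fell in PC3 parental cells. When the libraries that stood apart were left out, 13 rose and 2 fell in LNCaP CE, 18 rose and 2 fell in PC3 CE, 11 rose and 2 fell in LNCaP parental, and 11 rose and 3 fell in PC3 parental cells. The heptamer TATTTAT was in the 3' UTR of 81.2% of the 32 listed targets with a UTR, against 34.0% of all tested genes with one. The list was drawn up as AU-rich or stem-loop targets, so a high share is partly built in. TNFAIP3, a brake on NF-kB signalling, rose by 2.88 ± 0.24 in LNCaP CE (1.33 ± 0.123 TPM with Acetalax and 0.273 ± 0.120 TPM in controls, adjusted p = 0.000231) and by 1.86 ± 0.22 in LNCaP parental cells (adjusted p = 0.00055). The cytokine gene TNF reached 1.99 ± 0.133 TPM with Acetalax and 0.0967 ± 0.0929 TPM in controls of LNCaP CE (4.44 ± 0.74, adjusted p = 0.00580). The growth factor gene CSF2 was at 0 TPM in PC3 CE controls and at 0.277 ± 0.191 TPM with Acetalax, and gets no fold. MYC, whose mRNA is short-lived, fell by 2.82 ± 0.39 in LNCaP parental cells (19.2 ± 12.3 TPM with Acetalax and 148 ± 15.2 TPM in controls, adjusted p = 0.00136) and by 0.48 ± 0.07 in PC3 parental cells (adjusted p = 0.00260). In PC3 CE it rose by 0.61 ± 0.07 (adjusted p = 0.000853).

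Of 14 genes of the p38, MK2 and ERK inputs, 1 rose in LNCaP CE, 4 rose in PC3 CE, 1 fell in LNCaP parental cells, and 1 rose and 1 fell in PC3 parental cells. Of these genes, in the fit without the libraries that stood apart, 7 rose and 1 fell in LNCaP CE, 4 rose in PC3 CE, 5 rose and 1 fell in LNCaP parental, and 3 rose and 1 fell in PC3 parental cells. DUSP1, the phosphatase that shuts off p38, rose by 2.30 ± 0.34 in PC3 CE (48.7 ± 31.1 TPM with Acetalax and 10.4 ± 0.563 TPM in controls, adjusted p = 0.00299; 1.63 without PC3 CE Acetalax 1), and DUSP6, the ERK phosphatase, by 1.25 ± 0.15 (adjusted p = 0.00104). DUSP6 fell by 0.96 ± 0.15 in PC3 parental cells (14.6 ± 0.426 TPM with Acetalax and 28.9 ± 2.55 TPM in controls, adjusted p = 0.00344). MAPKAPK2, which encodes MK2, and MAPK14, which encodes p38 alpha, were not called with Acetalax in any kind of cell. Of 15 p53 targets other than BTG2, 4 rose in LNCaP CE, 2 rose and 1 fell in PC3 CE, 2 rose and 1 fell in LNCaP parental, and 1 rose and 2 fell in PC3 parental cells. Leaving out the libraries that stood apart, 8 rose and 1 fell in LNCaP CE, 6 rose and 1 fell in PC3 CE, 2 rose and 4 fell in LNCaP parental, and 3 rose and 4 fell in PC3 parental cells. BBC3, the death gene PUMA, rose by 1.44 ± 0.31 in LNCaP CE (adjusted p = 0.0195), 1.00 ± 0.18 in PC3 CE (adjusted p = 0.00724) and 1.34 ± 0.31 in LNCaP parental cells (adjusted p = 0.0232).

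Without drug, list genes are set against a background in which 6975 of 19393 genes rose and 7620 fell in LNCaP CE (75.3% called), and 7724 of 20049 rose and 7811 fell in PC3 CE (77.5% called). Most genes differed in these comparisons, and nothing particular to the lists is read from their counts. Decapping and exonuclease genes rose in 12 of 15 cases and fell in 1 in LNCaP CE, and rose in 10 and fell in 0 in PC3 CE. Deadenylation genes rose in 13 of 16 and fell in 2 in LNCaP CE, and rose in 9 and fell in 4 in PC3 CE. The median change was 0.58 and 0.68 for decapping and exonuclease genes and 0.50 and 0.35 for deadenylation genes in LNCaP CE and PC3 CE, against -0.06 and -0.01 over all genes. CNOT1 rose by 0.90 ± 0.14 in LNCaP CE (200 ± 6.79 TPM in CE and 126 ± 17.2 TPM in parental controls, adjusted p = 0.000112) and by 2.05 ± 0.08 in PC3 CE (adjusted p = 4.39e-10), while the deadenylase PAN2 fell by 2.57 ± 0.21 (adjusted p = 5.96e-07) and 3.34 ± 0.11 (adjusted p = 1.70e-10). ZC3H12C, a paralog of ZC3H12A, fell by 4.13 ± 0.26 in LNCaP CE (adjusted p = 8.74e-08) and 2.85 ± 0.15 in PC3 CE (adjusted p = 5.93e-09), and ZC3H12B rose by 4.90 ± 0.42 (adjusted p = 1.08e-06) and 2.90 ± 0.23 (adjusted p = 2.76e-07). Of the listed targets of ZFP36 or ZC3H12A, 13 of 23 rose and 5 fell in LNCaP CE, with a median of 0.86. In PC3 CE 6 of 31 rose and 23 fell, with a median of -3.06, against -0.01 over all genes. IL1B, a cytokine gene, had 0.0733 ± 0.0208 TPM in PC3 CE and 24.0 ± 3.29 TPM in PC3 parental controls (-9.83 ± 0.26, adjusted p = 2.98e-11). CSF2 and IL1A were at 0 TPM in all 3 PC3 CE controls, against 17.6 ± 0.548 TPM and 1.92 ± 0.407 TPM in PC3 parental controls.

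The genes whose levels were most like those of ZFP36 over the 24 libraries, by Pearson's r of log2(TPM + 1) among 21940 genes, were ZRANB1 (0.877), SELPLG (0.873), TIAM2 (0.838), AC131212.4 (0.835) and GAS5 (0.834). Those most like BTG1 were MAPT (0.950), TIGD7 (0.950), ARFGEF3 (0.949), FAM160A1 (0.948) and PCF11 (0.941). Among the members, TOB2 was the most like ZFP36 (0.555) and ZC3H12A the most like BTG1 (0.775), while ZFP36 and BTG1 themselves correlated at 0.066. The 24 libraries share 8 groups and 4 kinds of cells, so these values describe patterns of groups and are given with no test.

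Promoter windows from 250 bases before to 50 bases after each start (RefSeq, GRCh38.p14) were found for 8 of the 9 members, 10 windows in all, and ZFP36L2 had none. They are shown for ZFP36 and BTG1, on which the group was built, and for a start of ZFP36L1, the member window with a full cyclic AMP response element. Both strands were searched for that element (CRE, TGACGTCA), the short form TGACG, which is also part of the full element, the AP-1 element TGANTCA, the heat shock pair GAANNTTC, the TATA box TATAAA and, by name, the CArG box of serum response factor. Capitals mark each match.
ZFP36, chr19:39406597-39406896, plus strand: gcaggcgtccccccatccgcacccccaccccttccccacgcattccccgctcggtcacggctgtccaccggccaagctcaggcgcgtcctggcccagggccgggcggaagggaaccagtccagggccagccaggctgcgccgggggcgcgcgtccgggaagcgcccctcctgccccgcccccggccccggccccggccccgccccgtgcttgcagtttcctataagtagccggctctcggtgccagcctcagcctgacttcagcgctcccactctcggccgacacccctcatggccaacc
BTG1, chr12:92145797-92146096, minus strand: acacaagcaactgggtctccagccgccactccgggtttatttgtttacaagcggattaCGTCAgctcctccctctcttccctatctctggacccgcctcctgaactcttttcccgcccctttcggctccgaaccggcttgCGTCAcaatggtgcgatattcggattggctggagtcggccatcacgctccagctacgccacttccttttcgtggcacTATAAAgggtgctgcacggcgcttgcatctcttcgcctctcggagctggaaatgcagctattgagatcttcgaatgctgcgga
ZFP36L1, chr14:68793367-68793666, minus strand: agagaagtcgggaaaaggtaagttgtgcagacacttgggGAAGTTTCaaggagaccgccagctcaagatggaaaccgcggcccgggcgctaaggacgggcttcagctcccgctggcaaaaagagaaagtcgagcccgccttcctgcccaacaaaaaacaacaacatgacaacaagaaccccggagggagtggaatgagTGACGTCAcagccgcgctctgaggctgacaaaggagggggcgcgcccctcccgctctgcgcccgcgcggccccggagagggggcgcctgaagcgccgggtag
The ZFP36 window held none of these letters. The BTG1 window held short forms beginning at -192 and -110 and a TATA box at -33 from the start, and the ZFP36L1 window held the CRE at -52 and the heat shock pair at -211. Of all 35116 windows of this length, 1.85% held the CRE, 24.6% the short form, 7.71% the AP-1 element, 6.77% the heat shock pair, 11.5% the TATA box and 1.29% the CArG box. The short form was also in windows of ZFP36L1 (its other start), ZC3H12A, BTG2 and TOB1, and a TATA box in that of ZC3H12A. A match is not a site in use, and a window with none says only that these letters are not in it.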

How the data were processed

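Poly(A) RNA from 24 libraries (8 groups of 3) was made into directional libraries from 800 ng of RNA and read as 100 bp paired ends, per the labels' protocols. The submitters' processing notes list FastQC, STAR 2.7, RSEM and hg38 (GRCh38). Which gene annotation and strand option were used is not given in the sources used here. The authors deposited RSEM expected counts and TPM for 60660 features. Of the columns, 2 in all, 1 in each table, matched no sample and were not used. Expected counts (10.2% of values not whole) were rounded, with library totals shifting by at most 9.60e-05%. No replicates were alike within counting noise: the chi-square per degree of freedom was 3.57 or more for each pair.

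Tests used edgeR 4.0.16 (quasi-likelihood, TMM scaling, filterByExpr at a minimum count of 10, R 4.3.3), with Benjamini-Hochberg adjustment over all genes tested and a threshold of 0.05. The step was also run on simulated PC3 counts with 200 genes changed in a single group. That simulation held no library standing apart and no difference between CE and parental cells, so it does not cover those features of the data. Every adjusted p comes from the edgeR test, unless limma is named with it. Each line was fitted on its 12 libraries, comparisons between lines on all 24. Each SE is the log2 fold change over the root of its F value. Because no separate cultures are named, p-values reflect the spread of these libraries, possibly a technical one. Alternatives were RLE scaling, no filter, DESeq2 1.42.0, limma 3.58.1 on log2(TPM + 1) and log2(TPM + 0.1), the replicate number as a block, only the libraries compared, each library left out, and, chosen after seeing the data, the 3 libraries that stood apart left out. The replicate numbers did not pair the samples. Gene positions are from GENCODE 29, which matched 58429 features.

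The members and gene lists were chosen with earlier results of these data known. All 9 members are named in every comparison. From each list and comparison up to 4 called genes with the largest change were eligible, plus the 5 genes most like ZFP36 and BTG1. Named genes are also given in comparisons where they were not among those 4. CNOT7, MAPK14 and MAPKAPK2 with Acetalax fall outside that rule and were chosen after their values were seen.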

Additional observations from a re-analysis of the deposited data

Results flagged for a closer look

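The change of CE against parental controls differed between the lines for 8 of 9 members, against 56.8% of all genes. The test was of the difference itself (edgeR's quasi-likelihood test, 3 libraries in each of 4 groups, log2 scale, LNCaP minus PC3). The difference was 0.88 for ZFP36 (adjusted p = 0.0382), 1.68 for ZFP36L1, 2.18 for ZFP36L2 and 1.11 for ZC3H12A. It was -1.33 for BTG1 (adjusted p = 0.0266), -3.37 for BTG2, -1.76 for TOB1 and -0.50 for TOB2. Leaving out 1 library raised the adjusted p to as much as 0.103 for ZFP36 and 0.0556 for BTG1, so that these calls were lost. For BTG2 the CE change was -0.45 in LNCaP and 2.89 in PC3, and for ZFP36L2 it was 1.65 in LNCaP and -0.55 in PC3. Across 14219 genes the controls of the lines correlated at 0.943 for CE and at 0.754 for parental cells.

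In TPM, BTG1 was higher with Acetalax in CE cells and lower in parental cells, and the difference was not tested because the genes were chosen on this contrast. Its log2 change was 1.21 in LNCaP CE and 2.31 in PC3 CE, all libraries higher than their controls, and -0.18 in LNCaP parental and -0.075 in PC3 parental cells, all libraries lower. The PC3 parental change was smaller than its SE of 0.45, so no fall is read from it. Of all genes, counting either direction, 44.7% did not overlap in TPM in LNCaP CE, 31.9% in PC3 CE, 19.5% in LNCaP parental and 32.9% in PC3 parental cells. TOB1 was higher in every library of LNCaP CE (0.67) and lower in every library of PC3 parental cells (-0.46), and this difference was not tested either.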

How the results depend on the processing

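Within each line, all 9 members kept the sign of the CE change in the 14 alternatives. Over all tested comparisons, 623 of 684 alternative values of tested members kept both direction and side of the threshold. The counts of genes called with Acetalax depended on which libraries gave the spread, and the cause was not tested. From only the libraries compared, 7884 genes (78 list genes) were called in LNCaP CE, 224 (7) in PC3 CE, 154 (7) in LNCaP parental and 4762 (53) in PC3 parental cells, against 1436 (25), 1633 (42), 1639 (32) and 1564 (22) as reported. Without the 3 libraries that stood apart, an alternative chosen after seeing the data, they were 6763 (68) in LNCaP CE, 3358 in PC3 CE, 5280 (65) in LNCaP parental and 5590 (58) in PC3 parental cells. DESeq2 called 2877, 3085, 2770 and 2679 genes in the same order. With no low-count filter 896 genes were called in LNCaP CE. In PC3 parental cells limma called 1031 genes on log2(TPM + 0.1), and in PC3 CE it called 24 list genes on log2(TPM + 1).

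Leaving out 1 library at a time gave 541 to 610 genes (12 to 14 list genes) in LNCaP CE, 503 to 3358 (20 to 58) in PC3 CE, 967 to 2615 (27 to 37) in LNCaP parental and 573 to 1141 (11 to 20) in PC3 parental cells. The highest PC3 CE count is that without PC3 CE Acetalax 1 and the lowest that without PC3 CE control 3. Of 1940 alternative values of named list genes, 256 lost the call and 0 changed direction.

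Between CE controls of the lines, 8 members were called from only the libraries compared and 7 without the libraries that stood apart. As reported, 2 members and 41% of all genes were called. The shares of all genes in the alternatives are not given here, so nothing particular to the members is read from this rise. In that comparison BTG1, which was not called, changed sign to -0.16 with limma on log2(TPM + 1) and to -0.17 on log2(TPM + 0.1), and ranged from -0.035 to 0.10 when 1 library was left out. The difference of the CE change of BTG3 between lines ranged from -0.33 to 0.18 when 1 library was left out, the highest without LNCaP parental control 2, and was 0.18 without the libraries that stood apart.

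The replicate numbers did not pair the samples (deviations of same-numbered libraries correlated from -0.526 to 0.363 in LNCaP parental cells). With the replicate block, 870 genes were called in LNCaP CE and 994 in PC3 CE, and the numbers of members called did not change.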
